A study of Mus musculus with 6 samples.

Results

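Semaphorins, plexins and neuropilins are a ligand and receptor system, and their genes were followed here in CD4+ T cells of mice, grown under conditions for Th1 cells with or without ALX-5407, which blocks GlyT1, a membrane transporter of glycine. Members were chosen by gene name, as the semaphorins of classes 3 to 7, the A, B, C and D plexins, Plxdc1 and Plxdc2, and the neuropilins Nrp1 and Nrp2. This gave 33 of the 54532 genes listed. The family was picked from these data because the level of Sema3b was much lower with ALX-5407, so the values of Sema3b are given as a description without a test, and counts of members in the same comparison are also description. All 33 members were detected, with at least 1 count in some library, and 23 passed the low-count filter and were tested.

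Both groups held CD4+ T cells from the spleens of male C57BL/6 mice aged 6 to 8 weeks, isolated by negative magnetic selection and stimulated through CD3 and CD28 with IL-2, IL-12 and an antibody against IL-4. The Th1 group (n = 3) received vehicle, 0.1% DMSO, and the ALX-5407 group (n = 3) received ALX-5407 at 500 nM. The labels give 72 h for the culture and the exposure, whereas the methods of the study give a shorter exposure. The labels call the libraries biological replicates but do not say whether they came from separate mice, so the p-values measure the spread between these libraries. Total counts were 33432304, 32518060 and 30801753 in the Th1 libraries and 34735568, 36727788 and 34142475 with ALX-5407. The family held between 0.154% and 0.175% of the counts of a library.

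Semaphorins carry an extracellular sema domain and were first studied as cues that steer growing axons. Class 3 members are secreted, classes 4 to 6 span the membrane and the class 7 member is held by a glycolipid anchor. Plexins are their main receptors, and the intracellular part of a plexin acts on small GTPases of the Ras and Rap families, which changes adhesion and the cytoskeleton. Most class 3 semaphorins first bind a neuropilin, which has a short intracellular tail and signals with an A plexin. In the immune system, Sema4a, Sema4d and Sema7a are known as membrane ligands that act in contacts between T cells, B cells, dendritic cells and macrophages, and Nrp1 is used as a surface marker of thymus-derived regulatory T cells.

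All libraries carried markers of the labelled cell type. Mean levels in Th1 libraries were 646 CPM (counts per 1000000 counts of a library, with library sizes scaled by the TMM method) for Cd4, 173 CPM for Cd3e and 81.6 CPM for Tbx21, the transcription factor of Th1 cells. With ALX-5407 they were 470, 148 and 104 CPM, of which Cd4 fell by 0.46 (edgeR adjusted p = 0.000174) and Tbx21 rose by 0.34 (edgeR adjusted p = 0.000941) on the log2 scale. Of the 5 Th1 markers listed, Tbx21 was the only one called higher. Ifng, the signature cytokine of Th1 cells, fell by 0.79 (edgeR adjusted p = 5.75e-06), and Stat4, which transmits the IL-12 signal, was a lower DEG at -1.16 (edgeR adjusted p = 5.55e-08). Changes of Cxcr3 and Il12rb2 were not called. In a principal component analysis of log CPM, the first component (62.5% of the variance) separated the groups. On the second (11.0%), replicate 3 of each group lay apart from the other libraries, at -24.2 in Th1 cells and -26.2 with ALX-5407, against 9.72 to 15.7. Members whose call differs without replicate 3 of both groups are named with their values. In this bulk RNA, fewer cells that express a gene and less RNA of that gene per cell cannot be told apart.

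Among the 23 tested members, 7 were DEGs, defined as genes whose adjusted p was under 0.05 and whose log2 fold change lay beyond 1 in either direction, against 1600 DEGs among all 15938 genes tested. Higher with ALX-5407 were 2 of them, Sema4b and Plxna1 (3.36% of all genes tested were higher DEGs), and lower were 5, Sema3b, Sema4c, Sema4f, Sema6d and Plxna3 (6.68% were lower DEGs). At an adjusted p under 0.05 alone, 16 members differed, 8 in each direction, against 47.7% of all genes tested (24.5% higher and 23.2% lower). Libraries of the groups did not overlap for 17 of the 23 members, against 55.5% of all genes tested. The median log2 fold change of the 23 members was -0.15, against 0.0053 over all genes tested, and the median of its absolute size was 0.79 against 0.36. Without Sema3b, whose value chose the family, these medians of the members were -0.031 and 0.77. Because the choice of the family used this comparison, nothing is read from these counts.

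**Figure D1:**
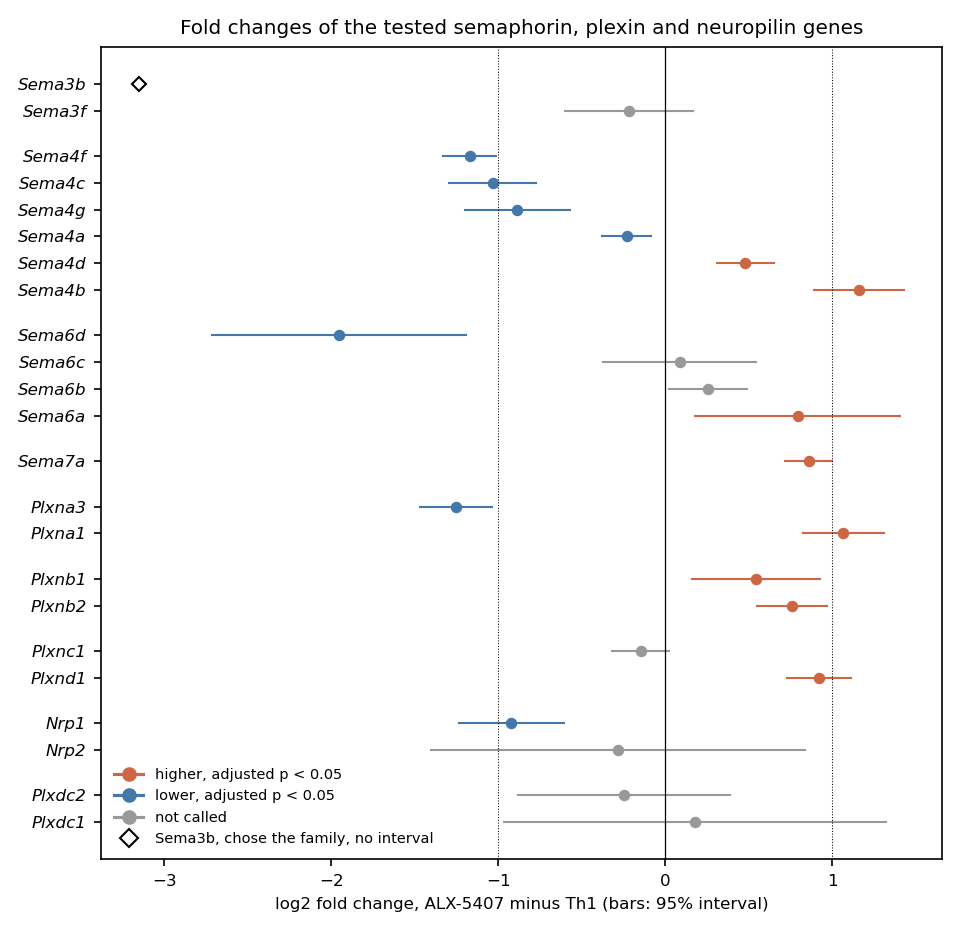
Log2 fold change (ALX-5407 minus Th1, x axis) of the 23 tested members, grouped by class from top to bottom, with 95% intervals from edgeR and dotted lines at the fold change threshold of 1 in either direction. Class 4 semaphorins and A plexins hold members on both sides of 0, and Sema3b, at -3.15, is drawn without an interval because it chose the family.

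The promoters of 4 members, a ligand and a receptor from each direction, are shown so that their sequences can be compared. RefSeq promoters on GRCm38.p6 were matched by symbol for 26 of the 33 members and for 17 of the 23 tested members, which had 28 entries. Of the DEG members, Sema3b and Plxna1 had no entry. Shown are the 250 bases before the start for the 2 members with the smallest p among those that fell, and for the 2 among those that rose, counting only members with a single entry. Each sequence runs 5′ to 3′ on the strand of the gene and ends at the last base before the start, which coincides with a transcript start of GENCODE M21. The windows are chr6:82939770-82940019 on the - strand for Sema4f, chrX:74328816-74329065 on the + strand for Plxna3, chr9:57939862-57940111 on the + strand for Sema7a and chr6:115995006-115995255 on the - strand for Plxnd1. Capitals mark every match, on either strand, to the letters GGGCGG (GC box), CACGTG (E-box), TGANTCA (AP-1), TGACGTCA (CRE), TGATGNAA (CHOP-ATF4 element), TGGAAA (NFAT) or TTCNNNGAA (STAT), and no match overlapped another.
Sema4f, lower with ALX-5407: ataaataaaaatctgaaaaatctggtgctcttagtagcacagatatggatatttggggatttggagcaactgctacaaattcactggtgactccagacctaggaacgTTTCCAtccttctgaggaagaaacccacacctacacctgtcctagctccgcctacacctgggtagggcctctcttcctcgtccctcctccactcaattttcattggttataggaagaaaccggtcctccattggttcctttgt
Plxna3, lower with ALX-5407: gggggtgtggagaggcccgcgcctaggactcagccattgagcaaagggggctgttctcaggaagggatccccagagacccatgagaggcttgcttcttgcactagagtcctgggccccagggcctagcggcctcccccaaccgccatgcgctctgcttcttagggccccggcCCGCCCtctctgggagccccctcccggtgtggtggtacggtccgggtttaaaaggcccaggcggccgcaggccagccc
Sema7a, higher with ALX-5407: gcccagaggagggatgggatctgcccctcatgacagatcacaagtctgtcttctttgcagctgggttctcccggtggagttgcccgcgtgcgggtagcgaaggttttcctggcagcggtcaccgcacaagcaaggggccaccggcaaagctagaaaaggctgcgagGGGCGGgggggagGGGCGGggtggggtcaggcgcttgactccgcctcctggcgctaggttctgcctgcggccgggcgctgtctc
Plxnd1, higher with ALX-5407: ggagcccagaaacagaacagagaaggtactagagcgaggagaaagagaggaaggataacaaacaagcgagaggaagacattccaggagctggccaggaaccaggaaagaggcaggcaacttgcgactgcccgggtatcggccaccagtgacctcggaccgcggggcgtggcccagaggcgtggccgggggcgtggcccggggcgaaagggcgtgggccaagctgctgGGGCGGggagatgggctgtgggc
The Sema4f window held 1 match to the NFAT letters, which begins 143 bases before the start and is read on the opposite strand, and no GC box. Its GC content was 46.0%, against a median of 52.4% over all 32851 promoters of the table. The other windows were richer, at 68.0% for Plxna3, 66.4% for Sema7a and 64.8% for Plxnd1. All 3 held the GC box letters, with 2 matches in Sema7a and 1 each in Plxna3 and Plxnd1, so that these letters stood before a gene that fell and before genes that rose. GC box letters were present in 22 of the 28 entries of tested members, which belong to 17 genes, and in 32.7% of all promoters. The median GC content of these 28 entries was 64.2%, against 52.4% over all promoters. These shares were not adjusted for GC content, so nothing about the family is read from them. For the other motifs the counts among the 28 entries, each followed by the share of all promoters, were 3 for NFAT (18.6%), 3 for AP-1 (6.75%), 2 for the E-box (6.02%), and 0 for STAT (7.02%), the CHOP-ATF4 element (3.45%) and CRE (1.55%). A match describes the letters in the window only.

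Among the secreted class 3 semaphorins, Sema3b (ENSMUSG00000057969) was the main member at the RNA level. Sema3b is a ligand of neuropilins and A plexins that is also known as a candidate tumour suppressor. In the Th1 libraries 3732, 3285 and 3359 reads were counted on it, and with ALX-5407 the counts were 393, 519 and 418. All libraries with ALX-5407 lay far below all Th1 libraries. Its mean level was 110 ± 4.93 CPM (SD, n = 3) in Th1 cells and 12.3 ± 1.43 CPM (SD, n = 3) with ALX-5407, which is 8.88-fold lower, or -3.15 on the log2 scale. Per length, its level was 22.9 ± 1.03 RPKM (CPM per kilobase of the gene length in the file; SD, n = 3) in Th1 cells, above that of 75.0% of all tested genes when averaged over the 6 libraries. Sema3b made up 94.1 ± 0.930% (SD, n = 3) of the summed class 3 RPKM in Th1 cells and 68.2 ± 3.19% (SD, n = 3) with ALX-5407, and the class sum went from 24.4 ± 0.963 to 3.79 ± 0.587 RPKM (SD, n = 3 each). These shares rest on the value that chose the family.

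Sema3f, a class 3 ligand that favours Nrp2, lies 72271 bases from Sema3b on the same strand and did not share its change. Its counts were 199, 220 and 256 in Th1 cells and 195, 295 and 175 with ALX-5407. The groups overlapped, with a log2 fold change of -0.22 (95% interval -0.60 to 0.17, adjusted p = 0.351 by the quasi-likelihood test of edgeR and the Benjamini-Hochberg method across all tested genes). Sema3a, Sema3c, Sema3d, Sema3e and Sema3g, which include the classical axon repellent Sema3a and the direct Plxnd1 ligand Sema3e, were not tested. None of them had more than 9 counts in any library, and Sema3c had 9, 4 and 4 counts in Th1 cells and 2, 0 and 2 with ALX-5407. A count of 0 allows up to 3 counts, which is 0.0804 to 0.0975 CPM in these libraries, and this limit covers counting error only.

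Class 4 semaphorins, membrane ligands for B plexins and Plxnd1, held most of the semaphorin RPKM, and their 6 members divided into 2 higher and 4 lower at an adjusted p under 0.05. Among all genes tested 24.5% were higher and 23.2% lower, and the class count is description only, as for the family. Sema4d (ENSMUSG00000021451), also known as CD100, is the class 4 ligand of Plxnb1, Plxnb2 and Cd72 that resting T cells carry in abundance. Its counts were 21307, 20521 and 16866 in Th1 cells and 30161, 33862 and 28915 with ALX-5407. Every library with ALX-5407 was above every Th1 library. The level rose from 619 ± 61.4 to 862 ± 42.1 CPM (SD, n = 3 each), with a log2 fold change of 0.48 (standard error, SE, 0.0806, edgeR adjusted p = 0.000134). Averaged over the 6 libraries, its RPKM was above that of 97.3% of all tested genes, the highest rank in the family.

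Sema4f (ENSMUSG00000000627), best known as a membrane semaphorin of neurons and glia, moved in the direction opposite to Sema4d. In Th1 cells it was close behind Sema4d per length, in RPKM, but well below it in CPM. The Th1 libraries had 14172, 13964 and 11827 counts, and the ALX-5407 libraries had 6504, 7142 and 6533. The lowest Th1 library thus stood well above the highest with ALX-5407. From 422 ± 32.7 to 187 ± 3.73 CPM (SD, n = 3 each), the log2 fold change was -1.17 (SE 0.0747, edgeR adjusted p = 6.22e-09). This gene had the smallest p of the members entered by name alone, and its promoter is the window without GC box letters printed above.

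The ratio of Sema4d to Sema4f RPKM was taken within each library. It was 1.04, 1.01 and 0.982 in Th1 cells and 3.19, 3.27 and 3.05 with ALX-5407. In Th1 cells the ligands stood level per length, and with ALX-5407 Sema4d led in each library. An exact permutation test of 3 against 3 libraries cannot give a p below 0.1, so no test is given for ratios and shares.

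Sema4b and Sema4c also differed in direction, at lower levels. For Sema4b, a membrane ligand expressed in many tissues, counts were 265, 224 and 267 in Th1 cells and 549, 673 and 699 with ALX-5407. All libraries with ALX-5407 were higher. The log2 fold change was 1.16 (SE 0.127, edgeR adjusted p = 1.80e-06), from 7.99 ± 0.777 to 17.8 ± 2.20 CPM (SD, n = 3 each). Sema4c, a ligand of Plxnb2, had 957, 758 and 663 counts in Th1 cells and 397, 506 and 416 with ALX-5407. Its Th1 libraries were all higher, with replicate 1 the highest. It fell from 25.0 ± 3.99 to 12.2 ± 1.20 CPM (SD, n = 3 each), with a log2 fold change of -1.03 (SE 0.123, edgeR adjusted p = 4.11e-06). Since this is just past the fold change threshold, Sema4c was no DEG without Th1 replicate 1 (-0.91), without ALX-5407 replicate 1 (-0.97) or with library sizes unscaled (-0.97), although its adjusted p stayed under 0.05 in each case. On the antisense strand, D430040D24Rik shares 334 exon bases of Sema4c, 7.27% of them. It had 4 to 7 counts per library, and strand use in counting is not given in the sources used here.

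Sema4a and Sema4g completed the class, both lower. Sema4a, a ligand of T cell costimulation whose receptors include Plxnd1, had 2883, 2797 and 2770 counts in Th1 cells and 2625, 2765 and 2798 with ALX-5407. Raw counts overlapped, but scaled to library size the groups did not, at 89.3 ± 0.735 CPM and 76.1 ± 3.22 CPM (SD, n = 3 each). The log2 fold change was only -0.23 (SE 0.0698, edgeR adjusted p = 0.0122), and the call was lost with library sizes unscaled (-0.17) and without ALX-5407 replicate 1 or 2 (-0.21 in both cases). Sema4g fell by 0.89 on the log2 scale (SE 0.149, edgeR adjusted p = 0.000126), from 12.6 ± 2.00 to 6.80 ± 0.942 CPM (SD, n = 3 each). Without Th1 replicate 3 it was a DEG, at -1.01, and also without both replicates 3, at -1.002.

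Class 5 semaphorins, which carry thrombospondin repeats, were at the limit of detection. Sema5a had 2 counts in Th1 replicate 3 and Sema5b had 4 counts each in Th1 replicates 1 and 2, with 0 in all other libraries, so that no fold change is given.

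Of the class 6 semaphorins, transmembrane ligands of A plexins, 1 was higher, 1 lower and 2 not called, where 47.7% of all genes tested were called. Sema6d, a ligand of Plxna1, had 53, 52 and 59 counts in Th1 cells and 10, 21 and 17 with ALX-5407. The groups were far apart, although the level was low, at 1.73 ± 0.159 and 0.444 ± 0.144 CPM (SD, n = 3 each). With so few reads the log2 fold change of -1.95 had a standard error of 0.358 (edgeR adjusted p = 0.000287), and the 95% interval ran from -2.71 to -1.20. Sema6a counts were 29, 37 and 32 against 65, 54 and 74, a log2 fold change of 0.79 (SE 0.290, edgeR adjusted p = 0.0331). Its call was lost in DESeq2 (0.79) and without Th1 replicate 1 (0.69), Th1 replicate 3 (0.78), ALX-5407 replicate 1 (0.78) or ALX-5407 replicate 3 (0.67), and without both replicates 3 (0.66). The cause of these losses was not tested. Sema6b, the most abundant class 6 member at 3.79 ± 0.465 RPKM in Th1 cells (SD, n = 3), had a log2 fold change of 0.25 (edgeR adjusted p = 0.0676). Sema6b was called with library sizes unscaled (0.32) and without Th1 replicate 2 (0.34). For Sema6c the log2 fold change was 0.086 (95% interval -0.37 to 0.54, edgeR adjusted p = 0.773).

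Sema7a (ENSMUSG00000038264), the glycolipid-anchored member that binds Plxnc1 and the integrin chain Itgb1 and is displayed by activated T cells, rose with little spread. Its counts were 3783, 3571 and 3551 in Th1 cells and 7378, 7719 and 7407 with ALX-5407. Libraries within each group were close together and the groups were far apart. The level went from 115 ± 1.16 to 209 ± 2.17 CPM (SD, n = 3 each), which is a 1.82-fold rise and a log2 fold change of 0.86 (SE 0.0664, edgeR adjusted p = 4.66e-08). Without any 1 of the libraries the log2 fold change stayed between 0.84 and 0.87.

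**Figure D2:**
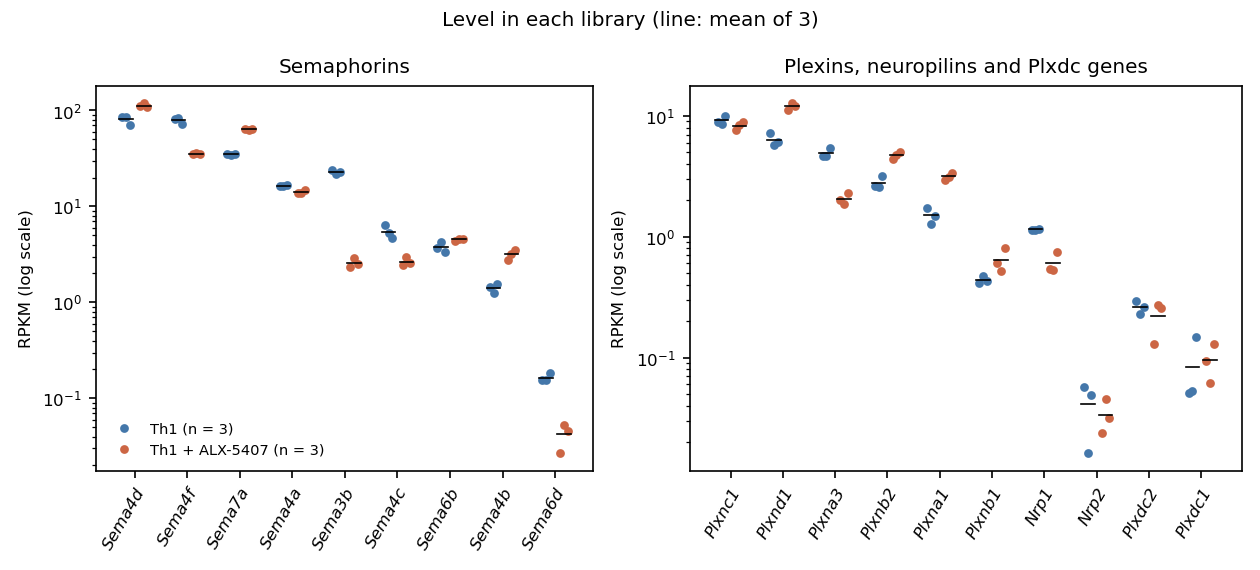
RPKM on a log scale (y axis) of 9 semaphorins and of 10 plexin, neuropilin and Plxdc genes in each of the 3 Th1 (blue) and 3 ALX-5407 (orange) libraries, with a line at each group mean. Sema4d and Sema4f overlap in Th1 cells, near 80.6 and 79.7 RPKM, and separate to 112 and 35.4 RPKM with ALX-5407, while Plxnc1 overlaps between the groups.

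As a sum over the semaphorins other than Sema3b, whose value chose the family, RPKM was 235.5, 235.9 and 209.8 in the Th1 libraries and 235.7, 245.3 and 235.2 with ALX-5407. The groups overlapped, so the summed ligand RNA did not separate them. The shares of single ligands in this sum did. Sema4d took 35.4 ± 1.23% (SD, n = 3) in Th1 cells and 47.0 ± 1.28% (SD, n = 3) with ALX-5407. Sema4f went from 35.1 ± 0.544% to 14.8 ± 0.121% (SD, n = 3 each). Sema7a went from 15.4 ± 1.10% to 26.6 ± 0.871% (SD, n = 3 each), and in none of these 3 shares did the libraries of the groups overlap. Together the 3 ligands held 85.9 ± 0.572% in Th1 cells and 88.4 ± 0.504% with ALX-5407 (SD, n = 3 each). With Sema3b in the sum they held 78.1 ± 1.08% and 87.5 ± 0.521% (SD, n = 3 each), a difference that rests largely on the value that chose the family.

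**Figure D3:**
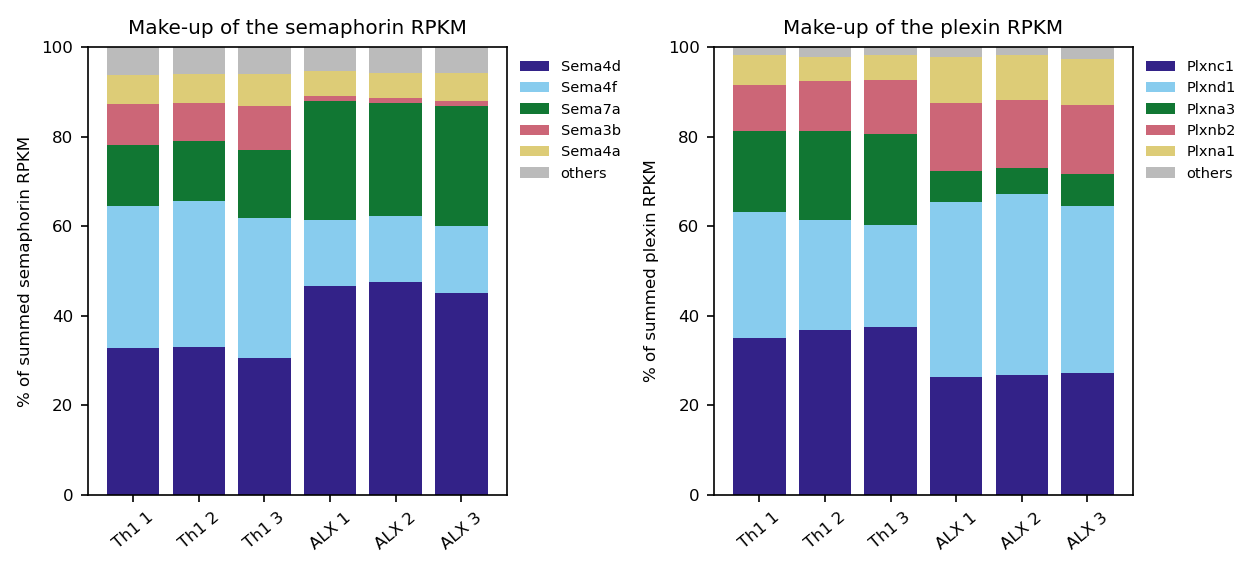
Share of the summed RPKM of the 20 semaphorins (left) and the 9 plexins (right) held by the named genes in each library (y axis, percent; ALX stands for ALX-5407), with Sema3b, which chose the family, included. The bands of Sema4f, Sema3b, Plxnc1 and Plxna3 are narrower and those of Sema4d, Sema7a and Plxnd1 wider in all 3 ALX-5407 libraries.

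Among the receptors, the A plexins, partners of neuropilins and of class 6 semaphorins, moved in opposite directions. Plxna1 (ENSMUSG00000030084), known in dendritic cells and osteoclasts as a receptor for Sema6d, had 512, 362 and 415 counts in Th1 cells and 946, 1045 and 1076 with ALX-5407. The lowest library with ALX-5407 was well above the highest Th1 library. Its level rose from 13.6 ± 2.09 to 28.5 ± 1.99 CPM (SD, n = 3 each), with a log2 fold change of 1.07 (SE 0.115, edgeR adjusted p = 1.42e-06), and it was no DEG without Th1 replicate 2 (0.95) or without both replicates 3 (0.995). The antisense gene Gm26811 shares 970 exon bases of Plxna1, 10.7% of them, and had at most 6 counts in a library.

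Plxna3 (ENSMUSG00000031398), an X-linked receptor known from axon guidance, had 1188, 1151 and 1319 counts in Th1 cells and 562, 548 and 634 with ALX-5407. Each group was tight and the groups lay apart. It fell from 38.7 ± 3.62 to 16.2 ± 1.72 CPM (SD, n = 3 each), with a log2 fold change of -1.25 (SE 0.103, edgeR adjusted p = 8.76e-08). Plxna2 and Plxna4 were not tested. Plxna4, a receptor for Sema3a on T cells, had 4 counts in Th1 replicate 3 and 0 in all other libraries, and Plxna2 had at most 10 counts in a library. The summed A plexin RPKM was 6.42 ± 0.4999 in Th1 cells and 5.22 ± 0.416 with ALX-5407 (SD, n = 3 each).

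Of the B plexins, receptors of class 4 semaphorins, 2 were tested and both were higher, against 24.5% of all genes tested. This count is description only, as for the family. Plxnb2 had 660, 622 and 750 counts in Th1 cells and 1186, 1378 and 1347 with ALX-5407. All libraries with ALX-5407 were above all Th1 libraries. Its log2 fold change was 0.76 (SE 0.0992, edgeR adjusted p = 1.12e-05), from 21.5 ± 2.50 to 36.3 ± 2.48 CPM (SD, n = 3 each). Plxnb1, the high-affinity receptor of Sema4d, had 129, 142 and 127 counts in Th1 cells and 205, 185 and 269 with ALX-5407. Again the groups did not overlap, but ALX-5407 replicate 3 stood above the other libraries with ALX-5407. The log2 fold change of 0.55 (SE 0.181, edgeR adjusted p = 0.0200) lost its call without Th1 replicate 1 (0.50), without ALX-5407 replicate 3 (0.36) and without both replicates 3 (0.33). Plxnb3 had 4 to 12 counts in every library and was not tested. Sema4d was thus far above either receptor per length, at 80.6 RPKM in Th1 cells against 2.78 RPKM for Plxnb2 and 0.438 RPKM for Plxnb1.

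The receptors with the highest levels were Plxnc1 and Plxnd1. Plxnc1 (ENSMUSG00000074785), the receptor of Sema7a, had 2439, 2247 and 2566 counts in Th1 cells and 2247, 2614 and 2589 with ALX-5407. The groups overlapped. Its log2 fold change was -0.15 (95% interval -0.32 to 0.03, edgeR adjusted p = 0.151). Itgb1, the integrin chain that Sema7a also binds, was named after its values were seen and fell by 0.41 on the log2 scale (SE 0.0670, edgeR adjusted p = 0.000104). The ratio of Sema7a to Plxnc1 RPKM was 3.93, 4.02 and 3.50 in Th1 cells and 8.31, 7.48 and 7.24 with ALX-5407.

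Plxnd1 (ENSMUSG00000030123), a receptor of Sema3e and Sema4a that guides blood vessels and thymocyte movement, had 1720, 1309 and 1361 counts in Th1 cells and 2890, 3445 and 3112 with ALX-5407. Its libraries with ALX-5407 were all higher. It rose from 46.3 ± 5.81 to 87.6 ± 5.34 CPM (SD, n = 3 each), a 1.89-fold rise and a log2 fold change of 0.92 (SE 0.0899, edgeR adjusted p = 4.97e-07). Without Th1 replicate 1 it passed the fold change threshold, at 1.02. In Th1 cells Plxnc1 was above Plxnd1 in each library, with RPKM ratios of 1.24, 1.501 and 1.65, and with ALX-5407 it was below, at 0.680, 0.664 and 0.728. Of the summed plexin RPKM, Plxnc1 held 36.4 ± 1.29% in Th1 cells and 26.8 ± 0.372% with ALX-5407 (SD, n = 3 each). Plxnd1 held 25.2 ± 2.80% and 38.9 ± 1.47%, and Plxna3 held 19.5 ± 1.25% and 6.67 ± 0.630% (SD, n = 3 each). The plexin sum itself was 25.6, 23.3 and 26.6 RPKM in Th1 cells and 28.8, 31.4 and 32.5 RPKM with ALX-5407, so that its groups did not overlap.

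Of the neuropilins, the co-receptors of class 3 semaphorins and of vascular endothelial growth factors, Nrp1 (ENSMUSG00000025810) had 365, 351 and 346 counts in Th1 cells and 185, 194 and 257 with ALX-5407. The Th1 libraries were nearly equal, and with ALX-5407 replicate 3 was the highest but still below them. Nrp1 fell from 11.2 ± 0.0246 to 5.92 ± 1.22 CPM (SD, n = 3 each), with a log2 fold change of -0.92 (SE 0.149, edgeR adjusted p = 9.10e-05), and without ALX-5407 replicate 3 it was a DEG, at -1.10, as it was without both replicates 3, at -1.11. Markers of regulatory T cells moved in both directions. Foxp3, the factor that defines these cells, had 483, 409 and 324 counts in Th1 cells and 833, 709 and 735 with ALX-5407, all higher. Its log2 fold change was 0.73 (edgeR adjusted p = 0.000204), and that of Ikzf2 was 0.43 (edgeR adjusted p = 0.00115). Of the 5 markers listed for regulatory T cells, 3 were higher and 2 lower, where 24.5% and 23.2% of all genes tested were. Il2ra also rose, by 0.44 (edgeR adjusted p = 0.000663). The lower markers were Ikzf4, at -0.44 (edgeR adjusted p = 0.000241), and Ctla4, at -0.46 (edgeR adjusted p = 0.000180). The sum of the 5 markers, led by Il2ra, was 3380, 3597 and 2996 CPM in Th1 cells and 3882, 3775 and 3883 CPM with ALX-5407. Activated T cells also express Il2ra and Ctla4, and the part of regulatory T cells in the Nrp1 result was not tested. Nrp2 was near the limit of detection, with 22, 6 and 18 counts in Th1 cells and 10, 20 and 13 with ALX-5407, and its log2 fold change of -0.28 had a 95% interval from -1.40 to 0.84.

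Plxdc1 and Plxdc2, membrane proteins named for a domain they share with plexins and not known as semaphorin receptors, were not called. Plxdc2 had 67, 50 and 56 counts in Th1 cells and 32, 71 and 63 with ALX-5407, and Plxdc1 had at most 22 counts in a library. Their log2 fold changes were -0.25 (95% interval -0.88 to 0.39) and 0.18 (95% interval -0.97 to 1.32), so that changes within these intervals remain possible.

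Ordered by mean RPKM, the Th1 libraries began with Sema4d (80.6 ± 7.999 RPKM) and Sema4f (79.7 ± 6.19 RPKM), whose ranges overlapped. Sema7a (34.9 ± 0.352 RPKM), Sema3b, Sema4a (16.5 ± 0.136 RPKM) and Plxnc1 (9.18 ± 0.724 RPKM) followed without overlap between neighbours, and after them Plxnd1, Sema4c and Plxna3 overlapped in turn (SD, n = 3 for each). With ALX-5407 the order was Sema4d (112 ± 5.48 RPKM), Sema7a (63.4 ± 0.659 RPKM), Sema4f (35.4 ± 0.705 RPKM), Sema4a (14.1 ± 0.596 RPKM), Plxnd1 (12.005 ± 0.731 RPKM) and Plxnc1 (8.29 ± 0.618 RPKM), with no overlap between neighbours (SD, n = 3 each). Sema3b went from rank 4 to rank 12, Plxna3 from 9 to 13 and Sema6d from 20 to 23, while Plxnb2 went from rank 11 to 7 and Sema4b from 14 to 9. Plxnb2 and Sema4b overlapped a neighbour in both groups, Plxna3 in Th1 cells, and Sema3b and Sema6d with ALX-5407, so these ranks are approximate.

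Genes that act with the family outside it were taken from a list of 67 co-receptors, other ligands, GTPase regulators, effectors and proteases. Of these, 65 were detected and 54 were tested, and 16 rose, 10 fell and 28 were not called at an adjusted p under 0.05. The 26 called are near the 47.7% of all genes tested that were called, and 3 of the 54 were DEGs, against 1600 of 15938 for all genes. The median log2 fold change of the list was 0.065, against 0.0053 over all genes tested, and the median of its absolute size was 0.31 against 0.36. Of 12 co-receptors and other ligands tested, 1 was higher and 5 were lower, where 24.5% and 23.2% of all genes tested were. This difference in direction was not tested. Chl1, an adhesion molecule that joins Nrp1 in Sema3a receptors, had 587, 585 and 579 counts in Th1 cells and 53, 36 and 74 with ALX-5407. It was low in all ALX-5407 libraries, with a log2 fold change of -3.60 (SE 0.193, edgeR adjusted p = 9.50e-10), a difference of the same order as that of Sema3b. Ptk7, a pseudokinase receptor linked to A plexins, had 76, 58 and 65 counts against 203, 245 and 236, a log2 fold change of 1.59 (SE 0.181, edgeR adjusted p = 2.51e-06).

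Inside the cell, GTPases and their regulators had 7 higher and 1 lower of 20 tested, and kinases and cytoskeletal effectors had 6 higher and 4 lower of 17 tested. Over all genes tested the shares were 24.5% higher and 23.2% lower, and no direction was tested for these groups. Pak1, a kinase driven by Rac, had the largest decrease among the effectors, with a log2 fold change of -1.54 (SE 0.0995, edgeR adjusted p = 7.03e-09). Dpysl2, also called CRMP2 and a microtubule-binding mediator of Sema3a signals, had 1527, 1399 and 1244 counts in Th1 cells and 2681, 3341 and 3248 with ALX-5407. No Th1 library came near those values, and the log2 fold change was 0.97 (SE 0.0884, edgeR adjusted p = 2.51e-07). The remaining partners among the 10 with the smallest p were all higher. Apart from Furin and Adam10, given below, they were Mical3, a flavoprotein of the plexin-binding MICAL group (0.70), Pip5k1c, a lipid kinase (0.68), Arhgef12, which B plexins bind (0.58), and Rap1b, a GTPase that plexins switch off (0.49), all on the log2 scale at an adjusted p under 0.05 in edgeR. Partners past these 10 were called in both directions.

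Of 5 tested proteases that process semaphorins or related membrane proteins, 2 were higher and 3 were not called, against 24.5% higher and 47.7% called either way among all genes tested. Furin, which cleaves class 3 semaphorins and other proproteins, had 24223, 21842 and 19402 counts in Th1 cells and 38593, 41214 and 37985 with ALX-5407. All ALX-5407 libraries were higher, with a log2 fold change of 0.66 (SE 0.0746, edgeR adjusted p = 2.29e-06). Adam10, a sheddase of membrane proteins, rose from 104 ± 6.92 to 155 ± 6.99 CPM (SD, n = 3 each; edgeR adjusted p = 9.82e-06). The related sheddase Adam17 was at 73.1 ± 3.00 and 76.2 ± 1.94 CPM (SD, n = 3 each), with a log2 fold change of 0.060 (edgeR adjusted p = 0.522).

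**Figure D4:**
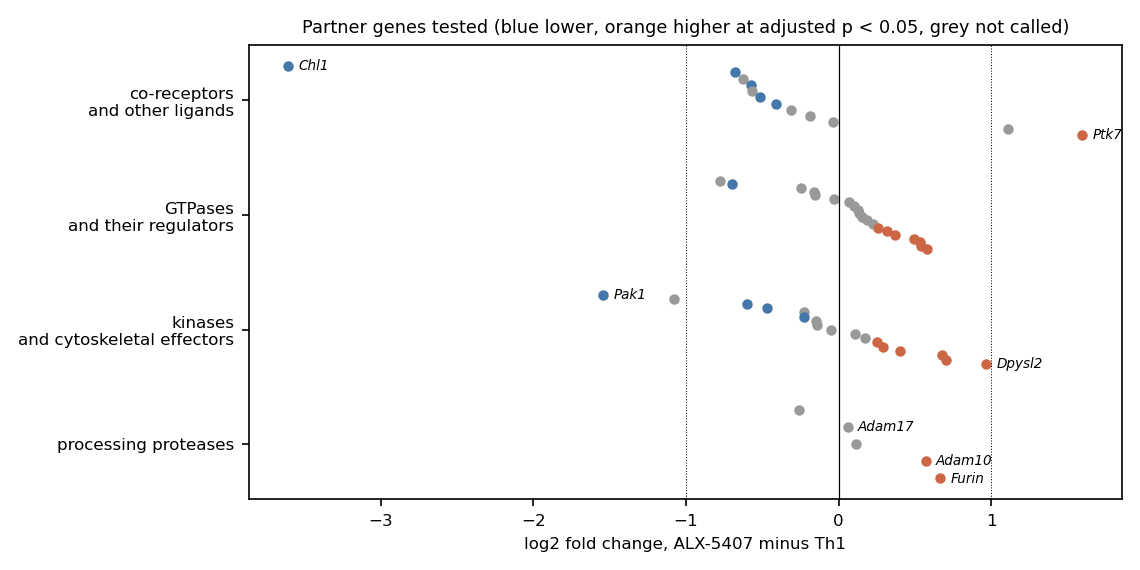
Log2 fold change (ALX-5407 minus Th1, x axis) of the 54 tested partner genes in 4 role groups, with 1 point per gene, orange for higher, blue for lower and grey for not called at an adjusted p under 0.05 in edgeR. Of the called genes, Chl1 (-3.60), Pak1 (-1.54) and Ptk7 (1.59) lie past the dotted lines of the fold change threshold.

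Position was not used in choosing the family, and genes around the 7 DEG members were compared with them. Sema3b spans chromosome 9 bases 107597674 to 107609229 of GRCm38, - strand, with 14 transcripts and up to 21 exons in GENCODE M21, and no exon of another gene overlaps its exons. Within 100 kb, 19 genes were tested, of which 8 fell and 2 rose at an adjusted p under 0.05, and 3 were DEGs, all lower. Over all genes tested, 23.2% were lower and 24.5% higher at that threshold and 6.68% were lower DEGs, and the surroundings were not tested as a group. The nearest of the 3 DEGs was the lincRNA Gm38150, 2783 bases away, with 17, 12 and 10 counts in Th1 cells and 0 in each ALX-5407 library. Taken against 3 counts per library it was at least 4.90-fold lower. Cacna2d2, a calcium channel subunit 68331 bases away, had 142, 155 and 109 counts against 83, 48 and 78, a log2 fold change of -1.13 (SE 0.240, edgeR adjusted p = 0.000982). Hyal1, a hyaluronidase, had 26, 18 and 18 counts against 6, 14 and 6.

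Abundant neighbours of Sema3b did not share the size of its change. Gnai2, a G protein subunit 4896 bases away, had 26169, 26228 and 21221 counts in Th1 cells and 24979, 27090 and 25056 with ALX-5407. Its groups overlapped (log2 fold change -0.12, edgeR adjusted p = 0.236). Ifrd2, 4289 bases away on the other side, rose by 0.62 on the log2 scale (edgeR adjusted p = 2.50e-05). Rassf1, a scaffold protein 35407 bases away, fell by 0.96 (edgeR adjusted p = 1.01e-05), and it was the lower neighbour with the smallest adjusted p.

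Around Sema4f, 3 genes were tested within 100 kb, and M1ap, a meiosis gene 7133 bases away, had 625, 497 and 611 counts in Th1 cells and 151, 207 and 119 with ALX-5407. It fell further than Sema4f, with a log2 fold change of -2.05 (SE 0.162, edgeR adjusted p = 5.73e-08). The other 2 genes, Dok1 and Loxl3, lay over 90 kb away and were not called. Next to Sema4b, Gdpgp1, an enzyme gene 6338 bases away, had 97, 101 and 114 counts against 298, 268 and 345, a log2 fold change of 1.36 (SE 0.169, edgeR adjusted p = 6.18e-06). Among the 12 genes tested there, 5 rose and 1 fell at an adjusted p under 0.05, including a rise of Cib1 at 620 bases (0.48). Over all genes tested, 24.5% were higher, 23.2% were lower and 47.7% were called either way, and these 12 were not tested as a group. Near Sema4c, Fam178b had 19, 16 and 23 counts in Th1 cells and 0, 0 and 2 with ALX-5407, a ratio of 33.0 with a 95% interval of 8.73 to 279 that covers counting error only and leaves out the spread between libraries. Of the other 4 genes tested near Sema4c, Cnnm3 rose by 0.70 and 3 were not called.

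Around Plxna3, 14 genes were tested within 100 kb, of which 7 fell and 2 rose at an adjusted p under 0.05, against 23.2% lower and 24.5% higher over all genes tested. None was a DEG, and these genes were not tested as a group. Among them Emd (-0.70) and Fam50a (-0.68) fell less than Plxna3, and Flna, an actin cross-linker, rose by 0.23 (adjusted p under 0.05 in edgeR for each). Around Plxna1 only Chchd6 was tested (log2 fold change -0.18, edgeR adjusted p = 0.274), and around Sema6d no gene was.

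**Figure D5:**
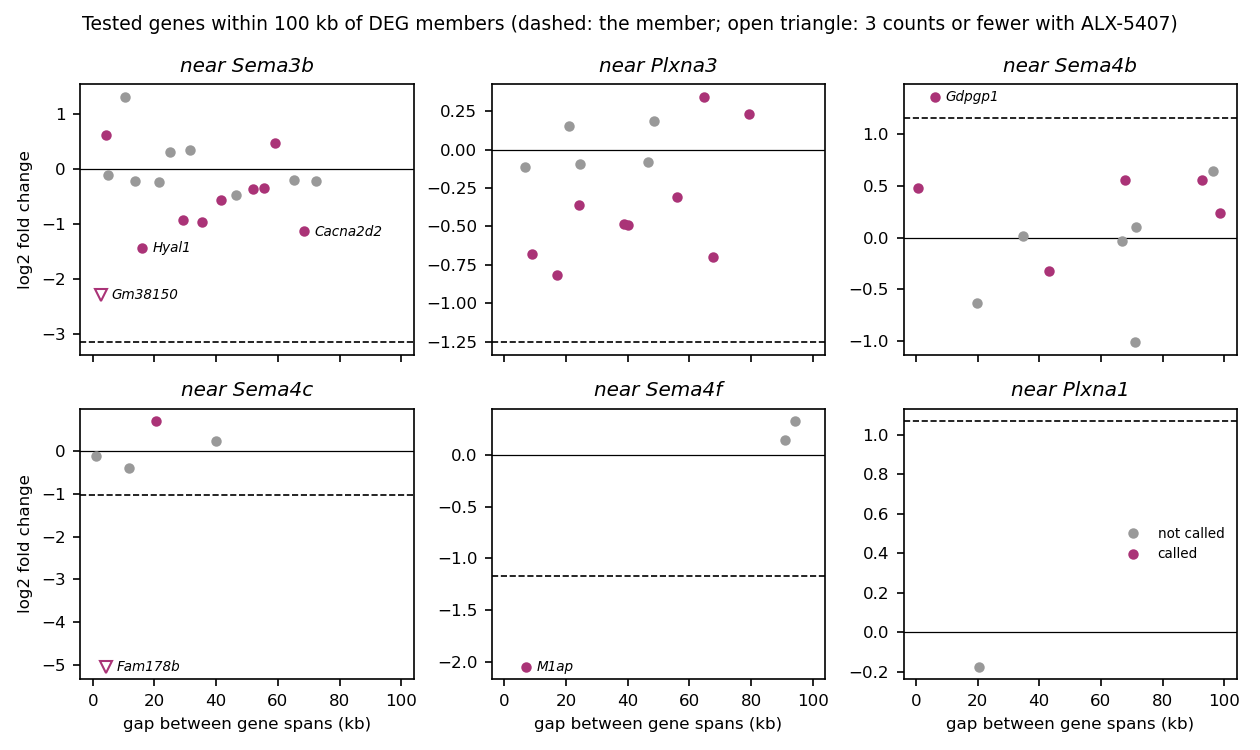
Log2 fold change (ALX-5407 minus Th1, y axis, scaled separately in each panel) of tested genes against their gap to a DEG member (x axis, kb), with a dashed line at the member's own value, points coloured by an adjusted p under 0.05, and names for DEGs. Gm38150 (at its bound) and Fam178b (at its ratio of counts) are open triangles, and M1ap near Sema4f and Gdpgp1 near Sema4b lie past the dashed line of their member.

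Markers of other cell types were examined because the family is widely expressed outside T cells. B cell markers were higher with ALX-5407 for 5 of 7 genes, against 24.5% of all genes tested. Their sum was 11.3, 11.5 and 10.04 CPM in Th1 cells and 19.6, 16.4 and 17.8 CPM with ALX-5407. Cd22 was the most abundant of them, at 2.29 and 3.93 CPM. Platelet markers were higher for 2 of 3 tested of 4, where 24.5% of all genes tested were higher. Their sums were 3.72, 4.47 and 5.07 against 9.29, 10.4 and 7.84 CPM, led by Itga2b. The NK list had only Eomes tested and higher, which T cells also express, and Ncr1, Klrb1c and Klra8 were too low to test. Endothelial markers summed to 81.5, 80.6 and 73.0 CPM against 62.1, 64.6 and 62.1 CPM, nearly all of it Pecam1, which T cells also carry, with Cdh5 and Emcn at 0 in all libraries. Their part in the changes of the family was not tested.
The macrophage and monocyte list had 0 of 7 genes tested and a sum of at most 0.812 CPM in a library, led by Itgam, so these cells' defining markers were near 0. Dendritic markers (2 of 6 tested, 0 called, Siglech at 0 counts) summed to 3.05 to 4.87 CPM, led by Zbtb46, and erythroid markers (1 of 4 tested, not called) to at most 0.780 CPM. Neuronal markers (1 of 4 tested, not called, Syt1 at 0 counts) summed to 1.73 to 3.13 CPM, led by Map2. Of the fibroblast list 2 of 6 genes were tested and Pdgfrb was higher, with sums of 1.25 to 3.48 CPM led by Col1a1 and with Col3a1 and Pdgfra at 0 counts. The CD8 T cell markers summed to 9.40, 9.25 and 9.59 CPM against 6.71, 7.56 and 8.87 CPM, with Cd8a lower and Cd8b1 not called. Of 9 general T cell markers 3 were higher and 4 lower, and of 5 Th1 markers 1 was higher and 2 lower, where 47.7% of all genes tested were called, with Ifng at 660 ± 106 and 383 ± 18.1 CPM (SD, n = 3 each).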

How the data were processed

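The authors deposited raw counts, whole numbers of reads per gene in each of the 6 libraries, unpooled and without normalization, with gene lengths and GRCm38 coordinates. The submitters' processing notes name fastp, HISAT2 2.0.5 and featureCounts 1.5.0-p3 on mm10. Strand use and the treatment of multi-mapped reads are not given in the sources used here, so genes with shared exons are uncertain. RNA selection is described differently in the labels (poly(A) capture) and in the methods (rRNA depletion).

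Counts were filtered with filterByExpr (minimum count 10, minimum total 15), scaled by TMM and fitted in edgeR 4.0.16 (R 4.3.3) by the quasi-likelihood method, and p-values were adjusted after Benjamini and Hochberg across 15938 genes. CPM and RPKM use TMM-scaled library sizes. Libraries of a group varied beyond counting error (chi-square per degree of freedom 5.65 to 22.4). Alternatives were DESeq2 1.42.0, limma-voom (limma 3.58.1), other scalings, filters and thresholds, a replicate block and each library left out. All 33 members have the same start and end in GENCODE M21. For Sema4g, however, the deposited gene length was 4872 bases, against 8661 merged exon bases in GENCODE M21. Its RPKM and its place in the level order therefore depend on the annotation. Promoters are from RefSeq. Figures were drawn with matplotlib 3.10.9.

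Members and lists were chosen with earlier results of these data known. All detected members could be named. The naming rule gave values in every library for DEG members, listed T cell ligands and receptors (Sema4a, Sema4c, Sema4d, Sema7a, Nrp1, Plxna1, Plxna4, Plxnb1, Plxnb2, Plxnc1 and Plxnd1) and the 5 members with the highest RPKM. Outside the family it named up to 10 called partners with the smallest p, Furin, Adam10, Adam17 and tested genes within 100 kb of DEG members. Marker lists covered T, Th1, regulatory T, CD8 T, B, macrophage and monocyte, dendritic, NK, endothelial, platelet, erythroid, fibroblast and neuronal cells.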

Additional observations from a re-analysis of the deposited data

How the results depend on the processing

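The log2 fold change of Sema3b ranged from -3.24 to -3.08 over 14 alternatives. The count of DEG members was 7 with RLE size factors, DESeq2, limma-voom and no low-count filter, 6 with unscaled libraries and 6 among genes with a mean of 50 counts or more, where Sema6d is not tested. Without 1 library it ranged from 6 to 8, with 1 to 3 higher and 4 to 6 lower. By adjusted p alone the members numbered 16, 8 higher and 8 lower, and at an absolute log2 fold change over 0.5 they numbered 14, of which 7 were higher. Partner DEGs numbered 3 in most settings, 4 with unscaled libraries, 3 to 5 without 1 library, 26 by adjusted p alone and 16 over 0.5. DEGs near members numbered 6 and, in settings chosen after seeing the data, 3 among genes with a mean of 50 counts or more, by the filter itself, 5 in DESeq2 and 5 to 7 without 1 library. With replicate 3 of both groups left out, a setting chosen after seeing the data because these libraries lie together on the second principal component, 8 members were DEGs, 1 higher and 7 lower, with 4 partners and 5 neighbours. Calls of Sema4a, Sema6a, Sema6b and Plxnb1 depended on the setting as given above, and the cause was not tested. No scaling moved the median of all genes by more than 0.059 on the log2 scale.

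With the replicate number as a replicate block, 7 members, 3 partners and 6 neighbours were DEGs, 1575 over all genes, against 1600 without the block. At an adjusted p under 0.05 alone, 7904 genes were called with the block and 7605 without it. What lies behind this higher number was not tested. The replicate numbers were not taken to pair the libraries. The labels name no shared mouse or day, and deviations from the group means correlated at -0.00840, 0.00355 and 0.0635 between libraries of the same number, and Th1 replicates 1 and 2 did not correlate best with their own number. Replicates 3 did share a side of the second principal component, at -24.2 and -26.2. Genes under about 50 counts have wide intervals at this depth.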
